A study of Mus musculus with 6 samples.

Results

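Arginine and polyamine metabolism was followed through 10 genes in mouse bone marrow-derived eosinophils exposed for 24 h to extracellular vesicles (EVs) from activated TH2 cells. The genes were chosen by name, with earlier results of these data known. They are Slc7a2, Arg1, Arg2, Nos2, Ass1, Odc1, Oat, Srm, Azin1 and Sat1, and all 10 were among the 16254 genes of the count table. Eosinophils were grown from the bone marrow of young adult C57BL/6 mice with FLT3 ligand and stem cell factor and then with IL-5. The 3 EV-treated cultures received 5e9 EVs per ml, isolated by size exclusion chromatography and ultrafiltration from medium of TH2 cells restimulated through CD3 and CD28. The 3 sham-treated cultures received unconditioned medium taken through the same isolation, so that an effect of the vesicles and of other material that copurifies with them cannot be told apart. The labels call the samples biological replicates without naming animals, and p-values measure the spread between these cultures.

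Cells use arginine in competing ways. Arginase splits it into urea and ornithine, and nitric oxide synthase turns it into nitric oxide and citrulline, which can be rebuilt into arginine. Ornithine then feeds either polyamine synthesis, through ornithine decarboxylase, or proline and glutamate, through ornithine aminotransferase. In type 2 inflammation the cytosolic arginase Arg1 is best known from macrophages that have responded to IL-4 or IL-13, while polyamines are needed for growth and for the translation factor eIF5A.

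Of the 10 genes, 9 had counts high enough to be tested, and 4 rose with EV treatment (edgeR quasi-likelihood test, Benjamini-Hochberg adjusted p under 0.01). These were Arg1, the cationic amino acid transporter Slc7a2, the spermidine synthase Srm and the ornithine aminotransferase Oat. Among all 13498 genes tested, 12.1% were called higher and 11.6% lower. The change in Arg1 was about 120-fold and that in Slc7a2 was 3.00-fold, whereas Srm and Oat changed by 1.76-fold and 1.38-fold. No member was called lower, none was lower at an unadjusted p under 0.05, and DESeq2 and limma also called 0 lower. The median log2 fold change of the 9 genes was 0.46, and that of all genes tested was -0.014. Since the members were chosen with earlier results of these data known, these counts and medians describe the set and do not test it. Without TMM scaling, which moved the median of all genes to -0.163, 2 members were called higher and 1 lower, while 1036 of all genes (7.68%) were called higher and 2342 (17.4%) lower, in place of 1632 and 1572. With a log2 fold change of at least 1 also required, 2 members were higher and 0 lower, against 3.1% and 6.35% of all genes.

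**Figure D1:**
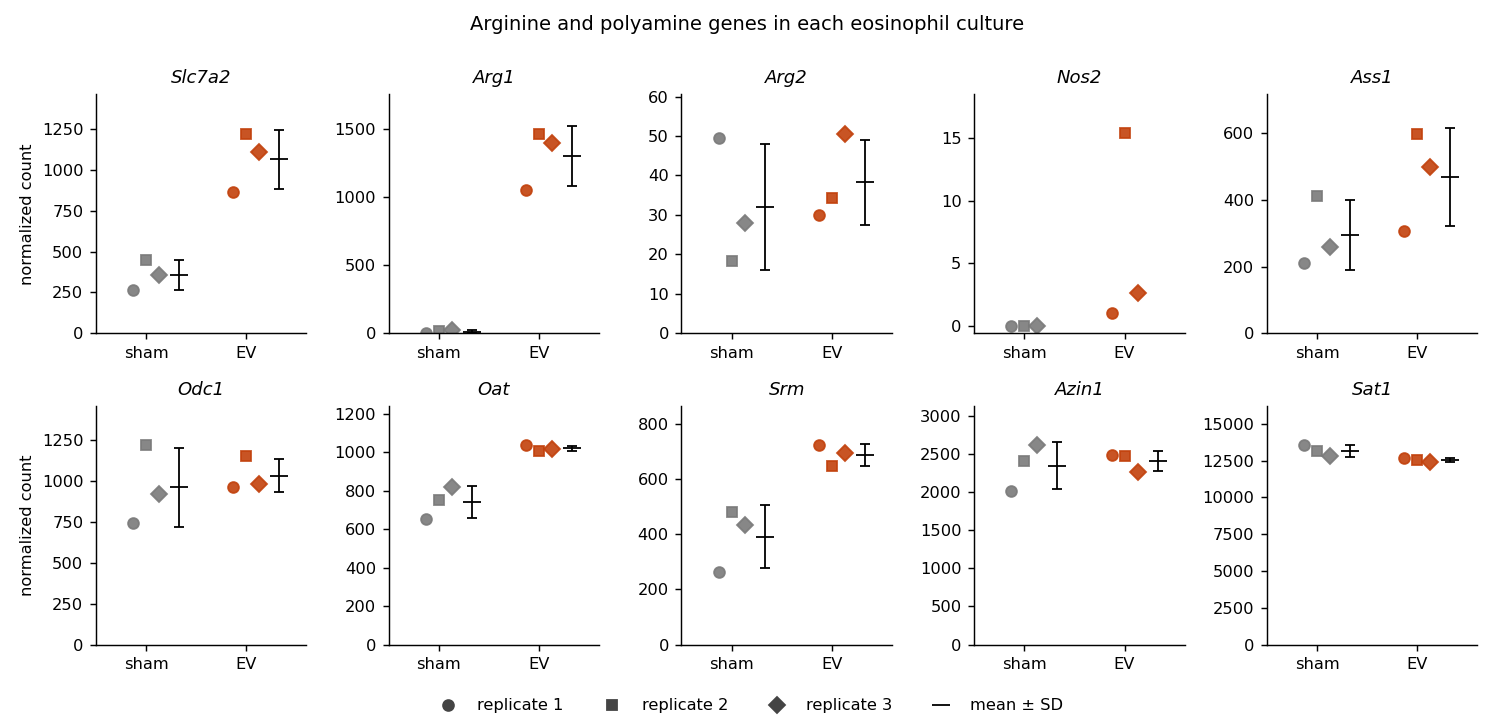
Normalized counts (vertical axes, each on its own linear scale) of the 10 genes in the 3 sham-treated and 3 EV-treated cultures, with the replicate number as the symbol and the mean ± SD (n = 3) beside each group, except for Nos2, where no SD is drawn. All EV-treated cultures lie above all sham-treated cultures for Slc7a2, Arg1, Nos2, Oat and Srm, as for 24.8% of all genes tested. Nos2 had 1, 18 and 3 counts in EV-treated replicates 1 to 3 and was not tested. For Sat1 all EV-treated cultures lie below, as for 24.7% of all genes tested, and the groups overlap for Arg2, Ass1, Odc1 and Azin1.

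Markers of other cell types were also detected and moved with treatment. All 10 eosinophil markers were detected, with 7 higher and 0 lower, and they summed to between 927678 and 1169540 normalized counts in sham-treated and between 1325040 and 1482380 in EV-treated cultures. Of 11 macrophage markers, 8 were lower and 1, Adgre1, which eosinophils also express, was higher. The macrophage markers summed to between 45350 and 62038 normalized counts under sham and between 40811 and 45644 under EV treatment, and none was at 0. Without Adgre1 the other 10 summed to between 24144 and 40943 under sham and between 8726 and 12237 under EV treatment. Of 5 basophil and mast cell markers tested, 3 were higher and 0 lower, with sums of 1857 to 2622 and 4865 to 6227. The 2 not called were Fcer1a, with means of 55.1 under sham and 163 under EV treatment, and Kit (546 and 468). The mast cell tryptase Tpsb2 was at 0 in every sham-treated culture. It had only 3.00, 1.71 and 1.74 normalized counts in EV-treated replicates 1 to 3 and was not tested. Of 8 neutrophil markers, 1 was higher and 5 were lower, with sums of 19369 to 23036 and 15429 to 19141. T cell markers summed to between 347 and 854 under sham and to between 66.9 and 129 under EV treatment, with 1 of 3 tested lower and no marker at 0 throughout a group. Cd28, the marker called lower, made up most of the sham sums, with 292, 707 and 679 normalized counts in replicates 1 to 3. Under EV treatment Cd28 had 27.0, 47.1 and 53.1. The 2 not called were Cd3d, with means of 38.3 under sham and 48.4 under EV treatment, and Gata3 (27.1 and 8.47). In bulk RNA, more cells of a type and more RNA per cell cannot be told apart. The part of these shifts in the results below was not tested. The paper reports that bone marrow-derived eosinophils survived better and showed less apoptosis with EVs from activated T cells than without treatment. The sham-treated and EV-treated cultures may therefore also differ in their share of dying cells. The part of such a difference in the fold changes given here was not tested. Library totals ran from 23697620 to 37874426 counts. The sham-treated cultures differed more among themselves (chi-square per gene 13.8 to 33.1) than the EV-treated cultures did (8.73 to 10.3), with sham replicate 1 farthest from the others.

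Arginine enters myeloid cells mainly through cationic amino acid transporters, of which Slc7a2 is the inducible member. Slc7a2 (chr8:40862396-40922308, plus strand, mm10, GENCODE M21) had 267, 447 and 354 normalized counts in sham-treated replicates 1 to 3 and 864, 1218 and 1108 in EV-treated replicates 1 to 3. Every EV-treated culture was above every sham-treated culture, a separation seen with EV higher in 24.8% of all genes tested. The mean was 356 ± 90.3 under sham and 1063 ± 181 under EV treatment (SD, n = 3 each), a change of 1.59 on the log2 scale (standard error 0.19, edgeR adjusted p = 0.00012). The call held in all 6 fits that left out 1 culture, with log2 fold changes from 1.42 to 1.79.

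Arg1 (chr10:24915221-24927484, minus strand), which encodes the cytosolic arginase of the urea cycle, was low in sham-treated cultures. Its estimated counts there were 0, 11 and 18, against 1055, 1707 and 1603 in EV-treated cultures. As normalized counts, the sham-treated replicates 1 to 3 had 0, 13.5 and 21.9, and the EV-treated replicates had 1054, 1463 and 1395. The groups were far apart, and within the EV-treated group the highest culture was 1.39 times the lowest. The mean went from 11.8 ± 11.03 (SD, n = 3) to 1304 ± 219 (SD, n = 3), with a log2 fold change of 6.91 (standard error 0.462, edgeR adjusted p = 2.61e-06). The 95% confidence interval of the change spans 58.8-fold to 246-fold, and the sham level rests on 29 counts in all. By log2 fold change, Arg1 ranked 23 of the 13498 genes tested. Its call held without any of the 6 cultures, with log2 fold changes from 6.20 to 7.80.

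Of the 5 basophil and mast cell markers tested, the 3 that rose beside Arg1 did so by 2.46-fold (Cpa3) to 6.21-fold (Ms4a2). Mcpt8, a basophil protease, had 141, 23.3 and 74.1 normalized counts in sham-treated replicates 1 to 3 and 506, 425 and 413 in EV-treated replicates, a 5.50-fold change (edgeR, adjusted p = 0.0018). Arg1 had only 0, 11 and 18 counts in sham-treated replicates 1 to 3, too few to set against Mcpt8 within that group. The 8 macrophage markers called lower had log2 fold changes from -2.87 (Marco) to -1.31 (Csf1r). Adgre1 was called higher (0.62), and Mrc1 (0.34) and Fcgr1 (-0.63) were not called. Which cells the Arg1 RNA came from was not tested.

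Arg2 (chr12:79130777-79156301, plus strand) encodes the mitochondrial arginase and was not called. It had 49.6, 18.4 and 27.9 normalized counts in sham-treated replicates 1 to 3 and 30.0, 34.3 and 50.5 in EV-treated replicates. The groups overlapped through sham replicate 1, which was above EV replicates 1 and 2, while the other sham-treated cultures were below every EV-treated culture. The log2 fold change was 0.25 with a 95% confidence interval from -0.95 to 1.45 (edgeR, adjusted p = 0.759), and at this depth neither a fall to 0.519 times nor a rise to 2.73 times the sham level could be told from no change. The log2 fold change was 0.73 without sham replicate 1 and -0.025 without sham replicate 2. Exons of Vti1b, on the opposite strand, cover 19.96% of the exon bases of Arg2. Vti1b had between 855 and 1316 counts per library, and since the strand setting of the quantification is not given in the sources used here, part of the Arg2 counts may belong to it.

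Set against each other within each culture, Arg1 was near or below Arg2 under sham and far above it under EV treatment. In sham-treated replicates 2 and 3 the counts were close, at 11 and 18 for Arg1 and 15 and 23 for Arg2. Per kilobase of reference transcript, Arg1 made up 0%, 41.5% and 43.1% of the summed arginase level in sham-treated replicates 1 to 3 and 97.1%, 97.6% and 96.4% in EV-treated replicates. The log2 ratio of Arg1 to Arg2 normalized counts, with 0.5 added to each, was -6.65, -0.43 and -0.35 under sham and 5.11, 5.39 and 4.77 under EV treatment. It differed by 7.57 between the group means (exact two-sided permutation p = 0.1, the smallest that 3 against 3 samples allow). Without sham replicate 1, where Arg1 was at 0, the difference was 5.48.

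Nos2 (chr11:78920787-78960254, plus strand) encodes the inducible nitric oxide synthase, which competes with arginase for arginine. It had 0 counts in every sham-treated culture and 1, 18 and 3 counts in EV-treated replicates 1 to 3, so that a single culture supplied most of its 22 counts. The gene fell under the filter on low counts and was not tested. A count of 0 allows up to 3 counts in a library by counting error alone, and EV replicates 1 and 3 are within that limit. Fitted without the filter, Nos2 had an edgeR p of 0.0274 before and 0.0813 after adjustment, and a DESeq2 p of 0.0346. The log2 ratio of Arg1 to Nos2, with 0.5 added to each normalized count, was 0, 4.81 and 5.48 in sham-treated and 9.46, 6.52 and 8.81 in EV-treated replicates 1 to 3 (difference of means 4.83, exact two-sided permutation p = 0.1). With Nos2 at 0, the sham values depend on the added 0.5.

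Ass1 (chr2:31470207-31520672, plus strand) encodes argininosuccinate synthase, which returns citrulline toward arginine. It shares its sequence with Gm5424, a processed pseudogene, and the stretch of its coding sequence below, with the differing bases in capitals, is shown because it holds differences by which these RNAs can be told apart. Over 1240 aligned bases the GENCODE M21 transcripts are 99.5% identical, the longest identical run is 398 bases, and no other aligned window of 60 coding bases holds more than the 2 differences printed.
Ass1: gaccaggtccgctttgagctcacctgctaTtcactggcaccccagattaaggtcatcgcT
Gm5424: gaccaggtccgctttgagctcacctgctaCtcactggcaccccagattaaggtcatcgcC
In the deposited counts Gm5424 had 5.32 and 5.02 counts in sham replicate 1 and EV replicate 1 and 0 in the other cultures, at most 2.21% of the counts of both genes. Nearly all counts were thus assigned to Ass1, although 43.1% of its 31-base words also occur in Gm5424.

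Ass1 had 212, 412 and 260.0 normalized counts in sham-treated replicates 1 to 3 and 308, 597 and 498 in EV-treated replicates. EV replicate 1 lay under sham replicate 2, so that the groups overlapped. The log2 fold change was 0.67 (95% confidence interval 0.040 to 1.31), with an edgeR p of 0.0395 before and 0.0936 after adjustment, and Ass1 was not called. Its spread was wide in both groups, with the highest culture 1.95 times the lowest under sham and 1.94 times under EV treatment.

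Of the enzymes that use ornithine, Oat was called and Odc1 was not, and the difference between them was not tested. Odc1 (chr12:17544794-17551505, plus strand), the ornithine decarboxylase that makes putrescine and limits the rate of polyamine synthesis, had 744, 1219 and 921 normalized counts in sham-treated replicates 1 to 3 and 966, 1154 and 984 in EV-treated replicates. All EV-treated values lay within the range of the sham-treated values. Its log2 fold change was 0.11 with a 95% confidence interval from -0.25 to 0.47 (edgeR, adjusted p = 0.645), which covers changes from 0.841-fold to 1.38-fold. The direction turned without sham replicate 1 (-0.0402) and without TMM scaling (-0.0409). Of the 31-base words of Odc1, 31.3% occur in other genes, and 19.4% in Gm7993. Gm7993 is not in the count table, so which reads belong to Odc1 is uncertain.

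Oat (chr7:132557478-132576398, minus strand), the mitochondrial aminotransferase that passes ornithine toward proline and glutamate, had 651, 752 and 819 normalized counts in sham-treated replicates 1 to 3 and 1035, 1005 and 1017 in EV-treated replicates. The EV-treated cultures were all higher, as for 24.8% of all genes tested, and lay close together, within 1.03 times of each other. The mean was 741 ± 84.3 under sham and 1019 ± 14.9 under EV treatment (SD, n = 3 each), a change of 0.46 on the log2 scale (standard error 0.101, edgeR adjusted p = 0.00528). The call was lost without sham replicate 2 (adjusted p = 0.0117) and without EV replicate 1, 2 or 3 (0.0232, 0.0235 and 0.0263), while the log2 fold change stayed between 0.38 and 0.55. Without TMM scaling the log2 fold change was 0.31 and the adjusted p 0.0373.

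Srm (chr4:148591503-148594993, plus strand) encodes spermidine synthase, which adds an aminopropyl group to putrescine. It had 262, 480.4 and 433 normalized counts in sham-treated replicates 1 to 3 and 723, 647 and 695 in EV-treated replicates. The lowest EV-treated culture was above the highest sham-treated culture, as for 24.8% of all genes tested. The mean was 392 ± 115 under sham and 689 ± 38.5 under EV treatment (SD, n = 3 each), a change of 0.82 on the log2 scale (standard error 0.198, edgeR adjusted p = 0.00899). This call is close to the threshold. It was lost without sham replicate 3 (adjusted p = 0.0176) and without EV replicate 1, 2 or 3 (0.029, 0.0244 and 0.036), and with upper-quartile scaling (0.0111) or without TMM (0.0254).

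Azin1 (chr15:38487427-38519266, minus strand), the antizyme inhibitor that protects ornithine decarboxylase from degradation, had 2007, 2407 and 2611 normalized counts in sham-treated replicates 1 to 3 and 2487, 2469 and 2262 in EV-treated replicates. The groups overlapped, and the log2 fold change of 0.040 had a 95% confidence interval from -0.17 to 0.25 (edgeR, adjusted p = 0.784). Its direction turned with upper-quartile scaling (-0.0046), without TMM (-0.108) and without sham replicate 1 (-0.0541).

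Sat1 (chrX:155213132-155216449, minus strand) encodes the acetyltransferase that starts the breakdown of spermidine and spermine. It had 13531, 13141.5 and 12774 normalized counts in sham-treated replicates 1 to 3 and 12682, 12505 and 12412 in EV-treated replicates. All EV-treated cultures lay below all sham-treated cultures, as did 24.7% of all genes tested, but by little. The log2 fold change was -0.069 with a 95% confidence interval from -0.18 to 0.044 (edgeR, adjusted p = 0.331), which spans 0.881-fold to 1.03-fold. Without TMM scaling Sat1 was called lower, with a log2 fold change of -0.218, which is -0.055 relative to the median of all genes under that scaling. The log2 ratio of Odc1 to Sat1 was -4.18, -3.43 and -3.79 in sham-treated and -3.71, -3.44 and -3.66 in EV-treated replicates 1 to 3, with a difference of means of 0.20 (exact two-sided permutation p = 0.5).

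**Figure D2:**
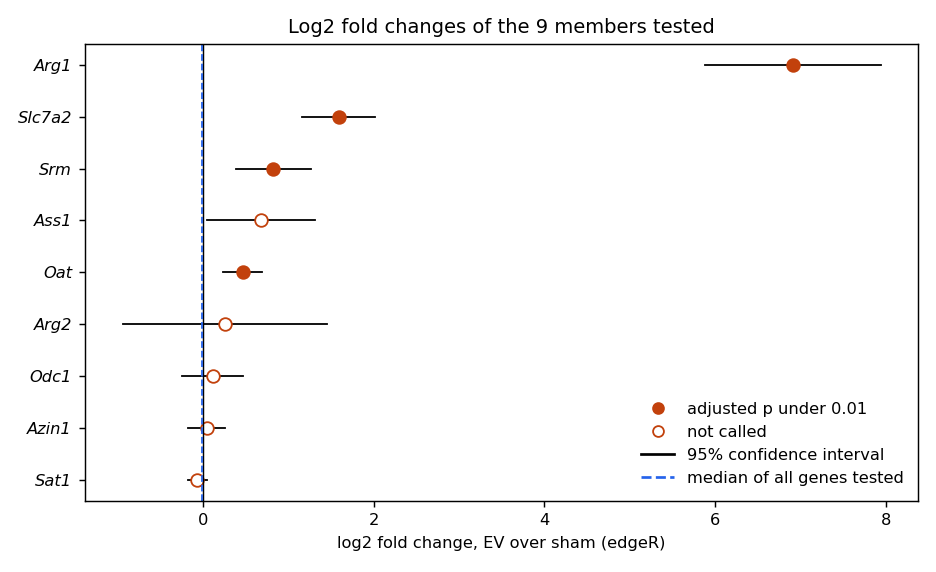
Log2 fold change of EV- over sham-treated eosinophils (horizontal axis) for the 9 genes tested, with 95% confidence intervals, filled points where edgeR gave an adjusted p under 0.01 and a dashed line at the median of all genes tested. Arg1 at 6.91 and Slc7a2 at 1.59 stand to the right of the others, and the intervals of Arg2, Odc1, Azin1 and Sat1 cross 0.

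To compare levels between genes, normalized counts were divided by the length of the principal reference transcript in kilobases. Under sham treatment Sat1 was highest at 11316 ± 326 (SD, n = 3) normalized counts per kilobase. It was followed by Azin1 (481 ± 63.0 per kilobase), Odc1 (435 ± 109), Oat (344 ± 39.2), Srm (293 ± 85.7) and Ass1 (174 ± 61.5), where each gene overlapped the next between cultures. Slc7a2 came next at 45.0 ± 11.4 per kilobase, below Ass1 in every culture, and then Arg2 (22.4 ± 11.2), Arg1 (7.98 ± 7.47) and Nos2 at 0, again with overlap between neighbours.

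Under EV treatment the order per kilobase changed mainly through Arg1, which moved from place 9 to place 2. Sat1 stayed highest at 10786 ± 118 (SD, n = 3) normalized counts per kilobase, and Arg1 followed at 883 ± 148, above every member but Sat1 in each culture. Srm (515 ± 28.8 per kilobase), Azin1 (494 ± 25.6), Oat (474 ± 6.92) and Odc1 (469 ± 46.8) overlapped their neighbours. Ass1 (276 ± 86.8), Slc7a2 (134 ± 22.9), Arg2 (26.8 ± 7.57) and Nos2 (1.85 ± 2.31) followed without overlap between neighbours.

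Cultures also differed within their groups. Sham replicate 1 had the lowest normalized count of its group in 7 of the 9 genes tested, the exceptions being Arg2 and Sat1, where it was highest. Without it the same 4 genes were called. EV replicate 1 had the lowest value of its group in 5 of the 9 genes, including Arg1, Slc7a2 and Ass1. Arg1 and Slc7a2 were called without each of the 6 cultures, and were the only members called when any EV-treated culture was left out.

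**Figure D3:**
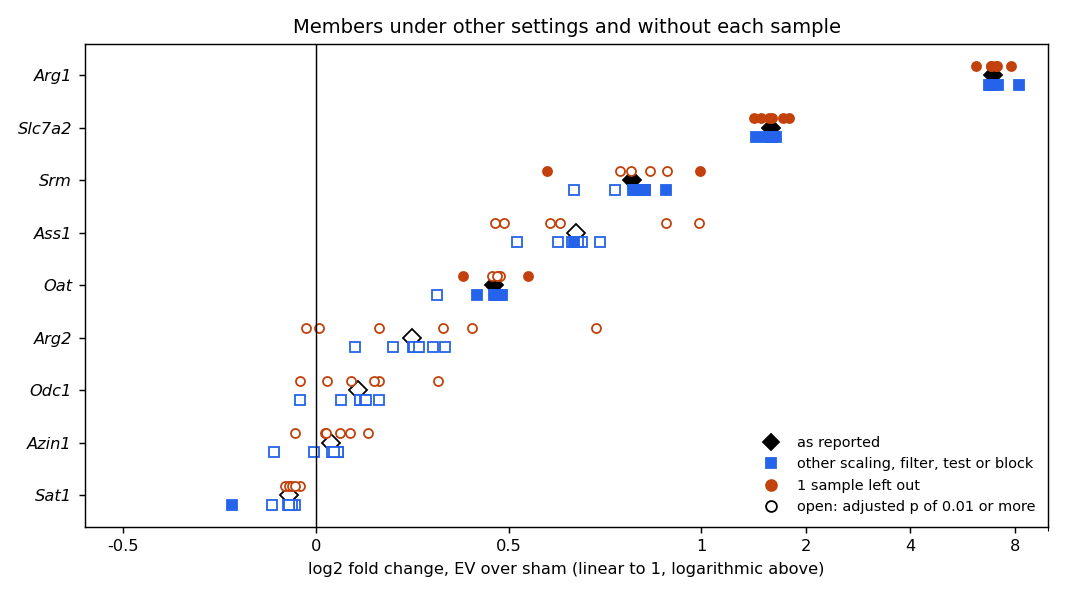
Log2 fold change of EV- over sham-treated eosinophils (horizontal axis, linear to 1 and logarithmic above) for the 9 genes as reported (diamonds), under 8 other scalings, filters, tests or the replicate block (squares) and without each of 6 cultures (circles), where filled symbols have an adjusted p under 0.01. Arg1 and Slc7a2 are filled throughout, Oat and Srm are filled in part, Ass1 is filled only with the replicate block, and Sat1 only without TMM scaling.

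Beyond these genes, 75 others of the same metabolism were listed in 6 groups, of which 64 were in the count table. After the filter 58 remained, and edgeR called 6 of them higher and 7 lower with EV treatment, against 12.1% and 11.6% of all genes. Their median log2 fold change was -0.16. Without TMM scaling 3 were higher and 14 lower, so the balance of directions depends on the scaling. Where macrophage markers fell with treatment (8 of 11, above), so did several of the genes below, and the part of those markers in these changes was not tested.

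In the group of arginine transport and the urea cycle, 1 of 11 genes tested was higher and 2 were lower, with a median log2 fold change of -0.15. Slc7a1, the constitutive cationic amino acid transporter, had 625, 619 and 883 normalized counts in sham-treated replicates 1 to 3 and 1178, 1121 and 1107 in EV-treated replicates, a change of 0.68 on the log2 scale (edgeR, adjusted p = 0.00307). It was thus higher in every EV-treated culture, as were Slc7a2 and 24.8% of all genes tested. Its call was lost without sham replicate 2 (adjusted p = 0.0117), without EV replicate 1, 2 or 3 (0.0124, 0.014 and 0.0137) or without TMM (0.0119). Slc7a7, the light chain of an exchanger that exports arginine and lysine, had 55.0, 146 and 118 normalized counts under sham and 3.996, 9.43 and 6.09 under EV treatment, a change of -3.99 on the log2 scale (adjusted p = 0.000325). Castor2, a relative of the arginine sensor Castor1, was lower, at -1.55 on the log2 scale (adjusted p = 0.000493). Castor1 itself, named after its values were seen, was above all sham-treated cultures in every EV-treated culture but was not called, at 0.90 on the log2 scale (adjusted p = 0.0129). Slc3a2, the heavy chain that Slc7a7 shares with other transporters, had the highest count of the group, with 12197 ± 387 (SD, n = 3) and 10875 ± 337 (SD, n = 3) normalized counts and a log2 fold change of -0.17 that was not called (adjusted p = 0.0369).

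Among 15 tested genes of nitric oxide, creatine and other arginine use, 1 was higher and 2 were lower, with a median of -0.35. Padi2, a deiminase that converts arginine within proteins to citrulline, went from 2840 ± 241 up to 4317 ± 212 normalized counts (SD, n = 3 each), a change of 0.60 on the log2 scale (edgeR, adjusted p = 0.000178). Padi4, the paralog with the highest count of the group, had 29979 ± 2777 and 32269 ± 2812 (SD, n = 3 each) and a log2 fold change of 0.11 (adjusted p = 0.353). Nostrin, which acts in the trafficking of nitric oxide synthase, was lower, at -2.14 on the log2 scale (adjusted p = 0.00228), and without EV replicate 2 or 3 the change was about as large (-2.03 and -2.04) but no longer called (0.0152 and 0.0166). Qdpr, which recycles the tetrahydrobiopterin cofactor of nitric oxide synthases, had a log2 fold change of -0.68 and an adjusted p of 0.00981. Its call was lost without sham replicate 2 or 3 (0.0264 and 0.0398), without EV replicate 1, 2 or 3 (0.0436, 0.0132 and 0.0447), and under RLE scaling (0.01001), no filter (0.0104) and limma-voom (0.0111).

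Of 9 genes tested in the ornithine and proline group, 2 were higher and 1 lower, with a median of -0.11. Aldh18a1, which makes the proline precursor from glutamate, had 499, 516 and 550.4 normalized counts in sham-treated replicates 1 to 3 and 967, 734 and 699.8 in EV-treated replicates. Its log2 fold change was 0.62 (edgeR, adjusted p = 0.00558), and the call was lost without any 1 of the cultures except EV replicate 3 (adjusted p up to 0.0245) and without TMM (0.0247). Aldh4a1, which oxidizes the same intermediate to glutamate and so stands next to Oat, rose. Its level was 739 ± 25.1 under sham and 1111 ± 54.7 under EV treatment (SD, n = 3 each), a change of 0.59 on the log2 scale (adjusted p = 0.000424). Pepd, the dipeptidase that releases proline, was lower, at -1.19 on the log2 scale (adjusted p = 0.001). P4ha1, a prolyl hydroxylase subunit and the gene with the highest mean count of the group over all 6 cultures, though not under sham, was not called, at -0.11 on the log2 scale (adjusted p = 0.329).

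No gene of polyamine synthesis and its control was called in either direction among the 12 tested with edgeR, where 0 were higher and 3 lower at an unadjusted p under 0.05. DESeq2 called 0 higher and 2 lower, limma on the deposited normalized counts 0 and 1, and limma-voom 0 and 0. The median log2 fold change was -0.15. Oaz1, an antizyme that targets ornithine decarboxylase for degradation, had the highest mean count over all 6 cultures, though Mat2a was higher under sham, with 4780 ± 455 (SD, n = 3) and 5147 ± 138 (SD, n = 3) normalized counts and a log2 fold change of 0.11 (adjusted p = 0.311). Of the members in this branch, Srm was called and Odc1 and Azin1 were not.

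Polyamine breakdown and transport had 1 gene higher and 2 lower of 7 tested, with a median of -0.30. Smox, the oxidase that returns spermine to spermidine, had 433, 576 and 497 normalized counts in sham-treated replicates 1 to 3 and 121, 191 and 152 in EV-treated replicates, a change of -1.69 on the log2 scale (edgeR, adjusted p = 9.6e-05). Atp13a2, which moves polyamines out of lysosomes, had the highest mean count of the group over all 6 cultures, though not over the EV-treated ones, and went from 11184 ± 373 down to 5654 ± 426 normalized counts (SD, n = 3 each), a change of -0.98 on the log2 scale (adjusted p = 3.03e-06). Slc22a3, an organic cation transporter, had 75.7, 99.3 and 112 normalized counts under sham and 287, 297 and 252 under EV treatment, a change of 1.55 on the log2 scale (adjusted p = 0.000252).

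The translation factor Eif5a, which carries the spermidine-derived amino acid hypusine, was higher in all EV-treated cultures, as were 24.8% of all genes tested. It went from 6486 ± 310 up to 8261 ± 220 normalized counts (SD, n = 3 each), a change of 0.35 on the log2 scale (edgeR, adjusted p = 0.00112), but was not called without TMM (0.0216). The remaining 3 genes of its group were not called, and the median of the 4 was -0.38.

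**Figure D4:**
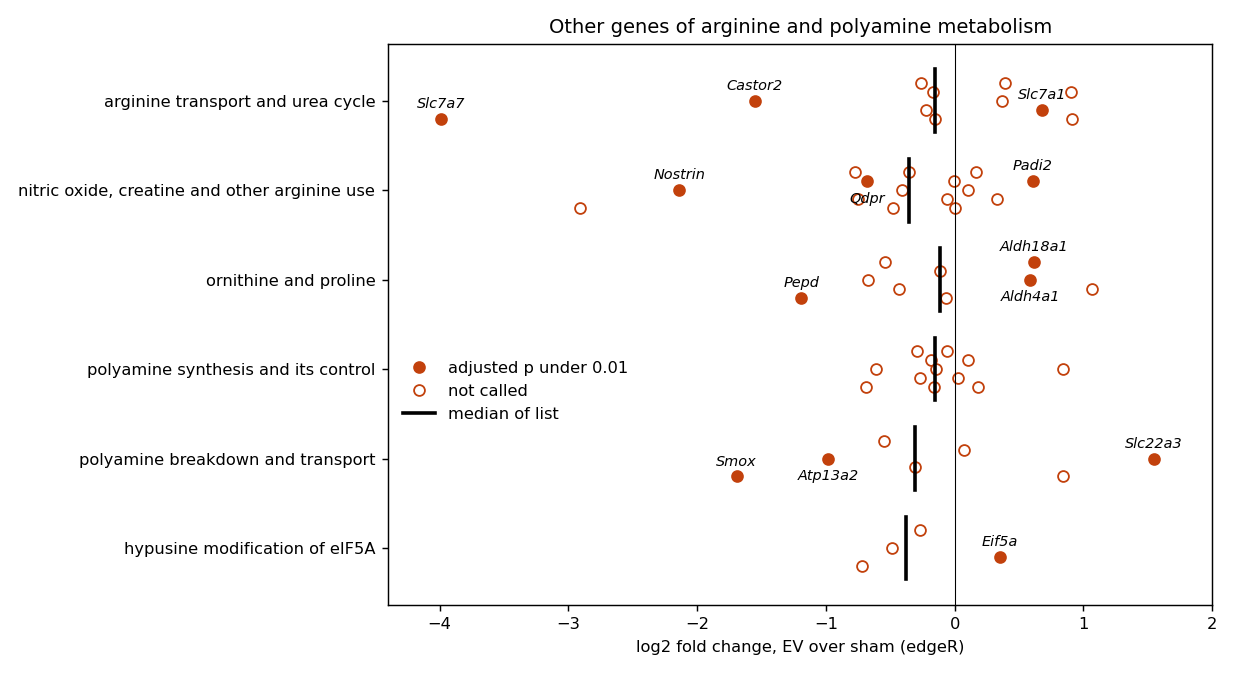
Log2 fold change of EV- over sham-treated eosinophils (horizontal axis) for the 58 tested genes of 6 groups of arginine and polyamine metabolism, with named filled points where edgeR gave an adjusted p under 0.01 and a black bar at each group's median. Slc7a7 lies farthest to the left at -3.99 and Slc22a3 farthest to the right at 1.55, and no gene of the polyamine synthesis group is filled.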

How the data were processed

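Poly(A) RNA of 3 sham-treated and 3 EV-treated cultures was sequenced. The authors trimmed the reads with Cutadapt and quantified them with Salmon against mm10. The annotation, strand setting and versions are not given in the sources used here. The authors deposited estimated counts for 16254 genes by symbol, and normalized counts, a signal equal to the rounded count plus 1 over a size factor per sample. The authors' own table of the comparison (fold changes, errors and p-values) was not used.

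Estimated counts were rounded and compared with edgeR 4.0.16 in R 4.3.3 (TMM, filterByExpr, quasi-likelihood test, Benjamini-Hochberg adjustment over 13498 genes), and a gene was called at an adjusted p under 0.01. Printed normalized counts are rounded counts over the TMM-scaled library size relative to its geometric mean. Standard errors are the log2 fold change over the square root of F. Limits from counts of 0 cover counting error only, and with totals of 23697620 to 37874426 counts the spread between cultures sets the precision except for low counts. Alternatives used DESeq2 1.42.0 and limma 3.58.1. The fits were tested on simulated data. Lengths, loci and shared 31-base words are from GENCODE M21.

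The members and lists were chosen with earlier results of these data known. Named besides the members are, for each list, the genes called (up to 4) and the gene with the highest mean count, and markers beside a member's value. Results on proteins planned for the paralogs were not analysed here.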

Additional observations from a re-analysis of the deposited data

How the results depend on the processing

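Alternatives were other scalings, no filter, DESeq2, limma on log2 of the deposited normalized count plus 1, limma-voom, the replicate number as a block, other thresholds, and leaving out each culture. Arg1 and Slc7a2 were called in all of these fits. Without TMM, members called higher fell to 2 and members called lower came to 1, genes of the pathway groups to 3 higher and 14 lower, and all genes higher to 1036. The log2 fold change was then 0.313 for Oat, 0.668 for Srm (0.775 with upper-quartile scaling), -0.0409 for Odc1, -0.108 for Azin1 (-0.00465 with upper-quartile scaling) and -0.218 for Sat1, now called. Since the median of all genes moved to -0.163, these are 0.476, 0.831, 0.122, 0.0543 and -0.0549 relative to it. With a log2 fold change of at least 1 also required, 2 members, 1 higher and 5 lower genes of the pathway groups, and 419 higher and 857 lower of all genes were called. At an adjusted p under 0.05, 9 genes of the pathway groups and 2362 of all genes (17.5%) were higher, and 17 and 2478 (18.4%) were lower.

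Without each culture in turn, 2 to 4 members were higher and 0 lower, and 1071 to 1833 of all genes were higher and 1018 to 1698 lower. Log2 fold changes ranged from -0.0254 to 0.726 for Arg2, -0.0402 to 0.317 for Odc1, 0.382 to 0.549 for Oat, 0.600 to 0.995 for Srm and -0.0541 to 0.135 for Azin1. The ratios of Arg1 to Nos2, Arg1 to Arg2 and Odc1 to Sat1 kept their sign throughout, between 3.12 and 5.86, 5.48 and 8.63, and 0.00886 and 0.386. For the 13 called genes of the pathway groups, 160 of 182 values kept their direction and call, 22 lost the call and 0 turned.

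With the replicate number as a block, Ass1 passed (log2 fold change 0.67, adjusted p = 0.00348), so that 5 members were higher, while 1794 of all 13498 genes were higher and 1781 lower, and 2 genes of polyamine synthesis and its control were lower in place of 0. Whether the numbers pair the cultures is not stated. After subtraction of group means, samples that share a number correlated at 0.0371 to 0.117 over 13498 genes (0.094 to 0.203 over 10454 genes with a mean over 100), and 5 of 6 samples correlated best with their own number, a hint from the data and not from the design.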

Other observations

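RefSeq promoter windows (GRCm38.p6, 250 bases before to 50 after the start) were at hand for 4 of the 10 genes, Ass1, Odc1, Oat and Sat1. On both strands, the STAT motif TTCNNNGAA and its variant with 4 bases between TTC and GAA occurred in none of the 4, against 8.29% and 6.95% of all 32817 windows. The E-box CACGTG occurred once, in the window of Ass1, beginning 36 bases before the start, against 7.15% of all windows. These letters are a description of the windows, and no binding was measured. Of the genes called, only Oat had a window, while Arg1, Slc7a2 and Srm had none. At these shares, 4 windows are too few for the lack of a STAT motif to be informative.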
